A study of Homo sapiens with 8 samples.

Results

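The response to CTBP2 that both lines of the series share was taken from all 8 of its 8 libraries, the 4 that carry CTBP2 against the 4 that carry the empty vector. MM.1S and NCI-H929 are established human lines of multiple myeloma, a cancer of plasma cells. Each was transduced with lentivirus carrying an empty vector or a CTBP2 overexpression vector and was harvested after 72 hours, with 2 libraries per line and vector that the series describes as biological duplicates. Both arms therefore carry a lentiviral vector, each line comes from 1 patient's tumour, and p-values measure the spread between these libraries. The values are FPKM (fragments per kilobase of transcript, scaled to the mapped total), tested as log2(FPKM + 1), so fold changes of low genes are understated.

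Shared genes were chosen by their change in these same libraries: an adjusted p under 0.05 in a limma fit with line and vector as terms, and both CTBP2 libraries of each line beyond both of its empty vector libraries, in the same direction. Of 12583 tested genes 3899 met this, 1996 higher with CTBP2 (15.9% of the genes tested, with CTBP2 itself among them) and 1903 lower (15.1%). Their own changes are descriptions here and carry no test. RP11-95P2.1, with an adjusted p of 0.05004, lies just outside the threshold of the limma fit.

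CTBP2 is a transcriptional corepressor. It does not read DNA itself, and is brought to genes by repressors that carry a short binding motif for it, together with histone deacetylases, demethylases and methyltransferases. Myeloma cells depend on the factor IRF4 and, in most tumours, on MYC, which drives ribosome production and DNA replication. The series title names a MYC and IRF4 axis, and the comparison asks which transcripts move with CTBP2 whichever line the cells are.

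The line term was set by expression because 2 labels conflict with the marker genes. CCND2, a cyclin of the G1 phase that MAF raises in MM.1S, was above 10 FPKM in 4 libraries, and FGFR3, the receptor kinase switched on by the translocation of NCI-H929, was above 10 FPKM in the other 4. Labelled as CTBP2 replicate 2 of MM.1S, 1 library had CCND2 at 0.0582 and FGFR3 at 22.2 FPKM and was fitted as NCI-H929. Labelled as CTBP2 replicate 2 of NCI-H929, another had CCND2 at 60.7 and FGFR3 at 0.0399 FPKM and was fitted as MM.1S. The remaining 6 libraries followed their labels. WHSC1 and MAF, which the translocations of NCI-H929 and MM.1S activate and the assignment did not use, lay on the same side. WHSC1 was 151.7 FPKM in the first of these and 20.8 FPKM in the second. MAF was 30.6 FPKM in the first library and 191.5 FPKM in the second, against 18.3 to 27.9 FPKM in the libraries labelled and fitted as NCI-H929 and 142.7 to 256.9 FPKM in those labelled and fitted as MM.1S. Whether tubes, files or column names were exchanged cannot be told from the table, and lines are called by expression from here on. The conflicting MM.1S library is thus the one whose label names NCI-H929, and the conflicting NCI-H929 library the one whose label names MM.1S.

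**Figure D1:**
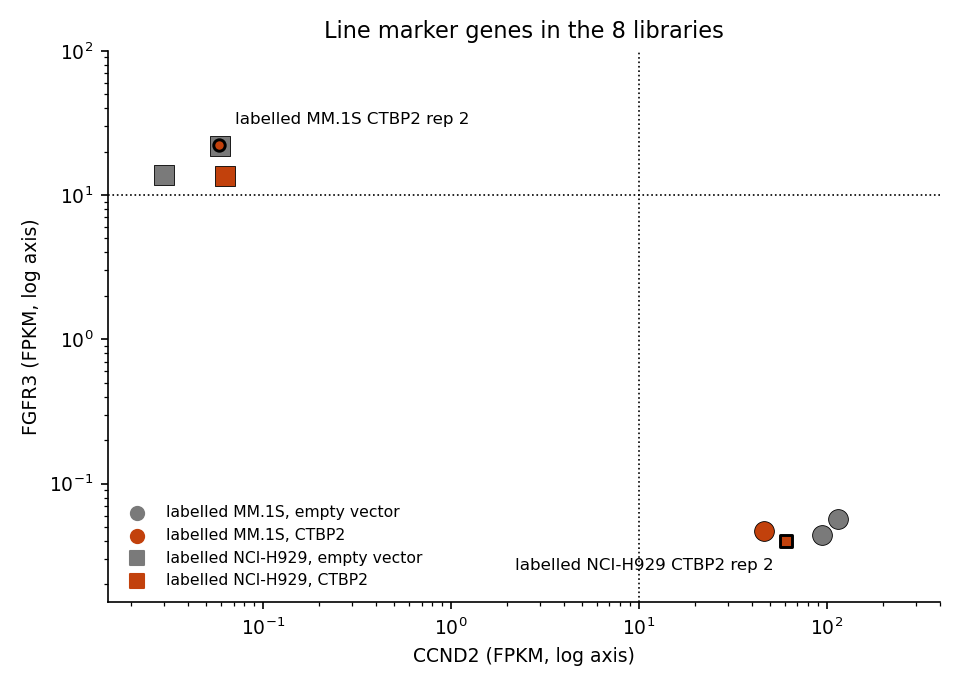
CCND2 against FGFR3 in each of the 8 libraries (FPKM, log axes), with the shape giving the labelled line, the colour the vector and the dotted lines the limits at 10 FPKM. The small heavily outlined points are the 2 CTBP2 replicate 2 libraries, which sit with the line opposite to their label.

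CTBP2 itself followed the vector in every library. It was between 0.148 and 0.213 FPKM with empty vector, at 2145 and 1621 FPKM in the MM.1S libraries that carry it, whereas the NCI-H929 libraries reached 5884 and 3427 FPKM. The 2 NCI-H929 libraries thus carried more than either MM.1S library, so line and CTBP2 level cannot be told apart where the lines differ in the size of a change. CTBP1, the paralog, was at 40.7 to 60.2 FPKM with empty vector and 51.6 to 64.1 FPKM with CTBP2 and did not pass (limma adjusted p = 0.106).

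Several measures of the whole libraries also moved with the vector. Summed FPKM was 547097 to 659837 with empty vector and 459733 to 544210 with CTBP2, and 10615 to 11012 against 11351 to 11912 genes reached 1 FPKM, with no overlap in either. Immunoglobulin genes had no common direction. In MM.1S they took 2.9 and 3.02% of the FPKM with empty vector and 2.07 and 2.52% with CTBP2. In NCI-H929 they took 0.204 and 0.155% with empty vector and 0.347 and 0.239% with CTBP2. Of 29 markers of T, NK, myeloid, red and B cells, platelets, epithelium, endothelium and stroma, 22 were below the expression filter. The sum of all 29 was 20.3 to 23.3 FPKM with empty vector and 23.2 to 33.5 FPKM with CTBP2 in MM.1S, and 27.5 to 39.1 against 69.6 to 91.0 FPKM in NCI-H929. CD8B, PPBP and PF4 were at 0 in every library, and CD3D, CD3G, CD4 and CD8A reached at most 0.238 FPKM. CD3E and CD68 made up most of the sum and were called higher, together with EPCAM, which reached 1.27 FPKM. The calls of CD68 and EPCAM were each lost in 4 of 8 fits that left out 1 library, and the list had 1 call in place of 3 without MM.1S CTBP2 replicate 1 or without MM.1S empty vector replicate 2. The part of these measures in the results was not tested, and in bulk libraries fewer cells of a kind and less RNA per cell cannot be told apart.

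The fit called 2186 genes higher with CTBP2 (17.4%) and 2101 lower (16.7%). With totals made equal after leaving out immunoglobulin genes and CTBP2 the split was 3819 higher and 876 lower. On the 12583 genes of the main fit, which the list counts below use, it was 3774 higher and 874 lower. The median change of all genes went from 0.035 to 0.27 on the log2 scale, so the balance of rises and falls depends on the scaling. A further 388 called genes overlapped between vectors in a line and were left out of the shared set, and 1309 genes lay apart in both lines without being called. Most shared changes were modest: the smaller of the 2 within-line changes had a median of 0.47 among the genes that rose and -0.50 among those that fell, and exceeded 1 for 135 and 103 of them. Genes of the shared set changed more in NCI-H929 in 2944 cases (75.5%).

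Setting the line term by expression changed the size of the result. Fitted as labelled, the same 8 libraries gave 192 calls higher (1.53%) and 228 lower (1.81%), and 416 of those 420 are shared genes. The median standard error of the vector term was 0.145 by expression and 0.242 as labelled, while the fold changes are identical because each arm holds the same libraries. Without both CTBP2 replicate 2 libraries, so with no conflicting label, 1449 genes were called higher (11.5%) and 1633 lower (13.0%). Of the 3899 shared genes 2785 (71.4%) were called there too, which is 90.4% of the 3082 calls, and 0 had the opposite sign. These 6 libraries are part of the 8, so the overlap is no separate evidence. The count of calls was 2458 without MM.1S CTBP2 replicate 1, 2528 without NCI-H929 empty vector replicate 1, 2823 without its replicate 2 and 2835 without MM.1S empty vector replicate 2.

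The lines share no library, so genes called in one could be read in the other. In MM.1S alone 781 of 11407 genes were called higher (6.85%) and 694 lower (6.08%). In NCI-H929 alone it was 1362 of 11620 higher (11.7%) and 1053 lower (9.06%). Of 611 genes called higher in MM.1S and tested in NCI-H929, 590 had the same sign there and 337 (55.2%) were called higher, with a median change of 0.92. Of 656 called lower, 612 had the same sign and 243 (37.0%) were called lower, with a median change of -0.85. Read the other way, 337 of 1039 genes called higher in NCI-H929 (32.4%) and 243 of 995 called lower (24.4%) were called the same way in MM.1S. Calls in opposite directions numbered 1 of the 611 genes and 5 of the 656. Across the 10501 genes tested in both lines the changes had the same sign in 79.4%, with a Pearson r of 0.71 and a Spearman rho of 0.75, a description across genes that share depth and length between libraries.

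**Figure D2:**
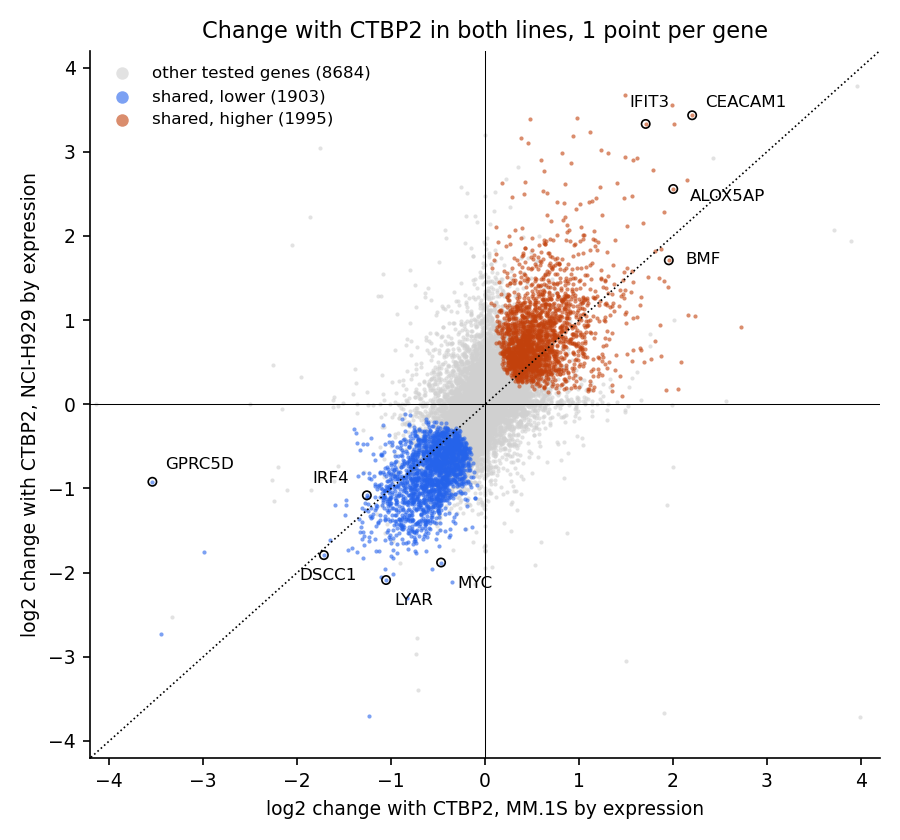
Log2 change with CTBP2 in MM.1S against that in NCI-H929, lines by expression, 1 point per tested gene other than CTBP2, with shared genes coloured and the dotted line marking equal change. Most coloured points lie steeper than the dotted line, 75.5% of shared genes having changed more in NCI-H929, and 13 genes fall outside the axes.

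These within-line counts rest on 2 libraries against 2 and are fragile. MM.1S gave 1475 calls in all, and 806, 733, 506 and 2550 without empty vector replicate 1, CTBP2 replicate 1, empty vector replicate 2 and the conflicting MM.1S library. NCI-H929 gave 2415, and 278, 3629, 1397 and 976 without empty vector replicate 1, CTBP2 replicate 1, empty vector replicate 2 and the conflicting NCI-H929 library. With no expression filter they were 9 and 2.

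IRF4, the factor myeloma cells depend on, fell, with a call in each line alone. In what follows 2 empty vector values precede 2 CTBP2 values, and the second CTBP2 value is from the library labelled with the other line. IRF4 was at 154.0, 142.8, 59.7 and 63.2 FPKM in MM.1S and at 131.9, 160.3, 66.8 and 69.6 FPKM in NCI-H929, a change of -1.26 and -1.08 on the log2 scale and of -1.17 (SE 0.12) over both, with a line-to-line difference of 0.18 (SE 0.23). All 4 CTBP2 libraries lay below all 4 empty vector libraries, whichever label is used.

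MYC, which activates ribosome and growth genes, was lower with CTBP2 in both lines but unequally. It was at 189.9, 188.0, 133.9 and 138.7 FPKM in MM.1S and at 114.6, 92.9, 27.9 and 26.8 FPKM in NCI-H929, a change of -0.47 against -1.88. Over both lines it was called (limma adjusted p = 0.0106, and 0.00843 to 0.0351 with single libraries left out), but not in MM.1S alone (0.0756) or with lines as labelled (0.329). Replicates of each line and vector lay close together under this assignment, and the groups overlap only across lines. The difference between lines passed (limma interaction adjusted p = 0.0362, 0.012 to 0.698 over its alternatives), as it did for 158 genes in all (1.26%), 45 of them shared. With the 6 libraries free of conflict it did not pass, at -1.36 (adjusted p = 0.143).

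Of 26 genes of plasma cell identity, IRF4 among them, 3 were called higher and 8 lower. Of all genes 17.4% were called higher and 16.7% lower. In this and later lists, counts of genes that rose or fell, or were higher or lower, are calls of the limma fit. A gene without a call can still have changed. A called gene need not be a shared gene, since its libraries can overlap between vectors in a line. FCRL5, CD79A and CD27 were the 3 called higher, at 1.45, 0.51 and 0.45. XBP1, SDC1 and CD38 were among the 15 not called, at -0.19, 0.04 and 0.85. The median change was -0.21 (-0.31 in MM.1S and -0.03 in NCI-H929) against 0.04 for all genes. Against the mean control, list medians were -0.36 and -0.281 in the MM.1S CTBP2 libraries. Those of NCI-H929 went apart, at -0.265 in the first and 0.259 in the conflicting library. The median over both lines turned to 0.08 with equal totals and to 0.14 under quantile normalization. TNFRSF17, the BCMA receptor targeted in myeloma therapy, was at 270.1, 299.2, 138.7 and 144.0 FPKM in MM.1S and at 743.7, 664.0, 490.8 and 380.9 FPKM in NCI-H929. GPRC5D, an orphan receptor on plasma cells, was at 104.9, 69.8, 6.20 and 6.69 FPKM in MM.1S and at 39.7, 42.8, 36.3 and 12.3 FPKM in NCI-H929. Its groups do not overlap in either line, but the first NCI-H929 CTBP2 library lies close to its controls. GPRC5D was not called in NCI-H929 alone (limma adjusted p = 0.177), and its call was lost in the 6 libraries without a conflicting label. FKBP11, a folding enzyme of the secretory pathway, fell by 1.05. Only 4 of the 26 fell without MM.1S CTBP2 replicate 1 or without NCI-H929 empty vector replicate 2, and 5 without MM.1S empty vector replicate 2 or without the conflicting MM.1S library.

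Genes of the nucleolus, where ribosomes are built, formed the list with the most genes called lower. Of 93 tested, 86 were called lower and 0 higher, 79 are shared genes and 92 had a negative change in both lines. Of all 12583 genes 4646 had a negative change in both lines. The median change was -0.88, -0.55 in MM.1S and -1.19 in NCI-H929. As a sum over the list the 4 MM.1S libraries held 4504, 5474, 2852 and 3723 FPKM and those of NCI-H929 8551, 6570, 3645 and 2777 FPKM. LYAR, a nucleolar zinc finger protein, was at 26.8, 36.7, 11.1 and 19.0 FPKM in MM.1S and at 50.1, 30.9, 10.4 and 6.90 FPKM in NCI-H929, a change of -1.57 (SE 0.28). MRTO4, BRIX1 and TCOF1, assembly factors of the large subunit and a regulator of ribosomal RNA transcription, fell by 1.28, 1.29 and 1.10. The list had 85 calls lower in the 6 libraries without a conflicting label, 31 with lines as labelled and 69 with equal totals. Of all genes 13.0%, 1.81% and 874 of 12583 were called lower in these settings.

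DNA replication genes were mostly lower, by close medians in both lines. Of 70 tested, 62 were called lower and 2 higher, and 58 and 2 are shared genes. The median change was -0.89, -0.91 in MM.1S and -0.88 in NCI-H929. Single CTBP2 libraries differed more, with list medians against the mean control of -1.19 and -0.637 in MM.1S and of -0.549 and -1.239 in NCI-H929. DSCC1, which helps load the sliding clamp for sister chromatid cohesion, was at 11.96, 9.84, 2.03 and 3.31 FPKM in MM.1S and at 15.4, 12.25, 4.89 and 2.08 FPKM in NCI-H929, a change of -1.75 (SE 0.21). CDC6, which loads the replicative helicase at origins, was at 27.5, 30.2, 7.61 and 15.8 FPKM in MM.1S and at 40.9, 29.5, 14.7 and 7.87 FPKM in NCI-H929. For both genes every CTBP2 library lay below every empty vector library. GINS2, a helicase subunit, MCM10, an initiation factor, and CDT1, the partner of CDC6, fell by 1.39, 1.41 and 1.43. ORC4, an origin recognition subunit, had the highest change of the list at 0.96. Of the 70 genes 55 were called lower in the 6 libraries, 5 with lines as labelled and 45 with equal totals. Of all genes 13.0%, 1.81% and 874 of 12583 were lower in these settings.

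Genes of mitosis had negative changes in both lines in 58 of 58 cases, against 4646 of all 12583 genes. Of the 58, 42 were called lower and 0 higher, with a median change of -0.83, and 35 are shared genes. Against the mean control, list medians were -0.978 and -0.655 in the MM.1S CTBP2 libraries and -0.295 and -1.431 in those of NCI-H929. The NCI-H929 controls stood at 0.201 and -0.201, so its first CTBP2 library lay close to the lower control and the conflicting one far below. MAD2L1, a spindle checkpoint protein, was at 73.4, 74.2, 26.5 and 32.8 FPKM in MM.1S and at 71.0, 46.9, 21.8 and 11.1 FPKM in NCI-H929. CKS1B, a subunit of cyclin-dependent kinases, and MYBL2, an activator of mitotic genes, fell by 1.09 and 1.15. AURKB, a mitotic kinase, was called at -1.16 but is no shared gene: in NCI-H929 it was at 61.7 and 34.7 FPKM with empty vector and at 39.4 FPKM in the first CTBP2 library. The call of AURKB was lost in 6 of 8 fits that left out 1 library, and in the 6 libraries, and that of MYBL2 in 3 of 8. The count lower was 17 without MM.1S CTBP2 replicate 1, 21 without NCI-H929 empty vector replicate 1 and 26 without MM.1S empty vector replicate 2. It was 24 in the 6 libraries and 23 with equal totals, beside 13.0% and 874 of 12583 of all genes.

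Enzymes that supply nucleotides, folates and polyamines fell in 35 of 50 cases and rose in 4, with a median of -0.76. RRM2, the small subunit of ribonucleotide reductase, was at 194.1, 185.7, 61.2 and 90.04 FPKM in MM.1S and at 112.4, 81.8, 55.9 and 23.8 FPKM in NCI-H929. ODC1, the first enzyme of polyamine synthesis, and SHMT2, the mitochondrial serine hydroxymethyltransferase, fell by 1.03 and 1.39. SMOX, spermine oxidase, which breaks polyamines down, had the highest change of the list at 1.11. The list had 34 calls lower in the 6 libraries, beside 13.0% of all genes.

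Of 43 genes of the ATF4 and amino acid response 24 fell and 2 rose, with a median of -0.64. Of these, 21 and 2 are shared genes. PYCR1, an enzyme of proline synthesis, was at 28.8, 41.1, 9.36 and 17.2 FPKM in MM.1S and at 111.8, 83.5, 37.5 and 20.7 FPKM in NCI-H929, apart from its controls within each line. DDIT4, an inhibitor of mTORC1, went the other way, from 9.78 and 16.3 to 39.3 and 36.3 FPKM in MM.1S and from 161.0 and 147.4 to 308.7 and 356.0 FPKM in NCI-H929. The count lower was 15 without MM.1S CTBP2 replicate 1 and 15 with equal totals. With equal totals 874 of all 12583 genes were lower.

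Chaperones and mitochondrial import genes were lower in 49 of 55 cases and higher in 0, with a median of -0.76. Shared genes among them numbered 45. HSPD1 and HSPE1, the paired chaperonins of mitochondria whose genes stand head to head, fell by 1.35 and 1.18. HSPD1 was at 436.1, 508.3, 207.6 and 271.9 FPKM in MM.1S and at 534.7, 382.9, 173.6 and 106.6 FPKM in NCI-H929. HSP90AA1, the inducible form of cytosolic HSP90, and its cochaperone FKBP4 fell by 1.01 and 1.09. The count lower was 29 without MM.1S CTBP2 replicate 1 and 31 without NCI-H929 empty vector replicate 1. It was 44 in the 6 libraries and 33 with equal totals, beside 13.0% and 874 of 12583 of all genes.

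Interferon-stimulated genes, which restrict viruses, rose in 35 of 57 cases and fell in 1, with a median of 0.69, 0.38 in MM.1S and 1.06 in NCI-H929. IFIT3, which binds foreign RNA in a complex, was at 0.488, 0.9, 5.90 and 3.38 FPKM in MM.1S and at 0.403, 0.408, 26.2 and 6.33 FPKM in NCI-H929, a change of 2.52 (SE 0.44). IFI44 was at 0.898, 1.29, 5.95 and 5.95 FPKM in MM.1S and at 0.0946, 0.0346, 2.80 and 1.43 FPKM in NCI-H929. For IFIT3 every CTBP2 library lay above every empty vector library. XAF1, an inhibitor of XIAP, and DTX3L, a ubiquitin ligase partner of PARP9, rose by 1.37 and 1.81. IFITM1 had the lowest change of the list at -0.67. The rises numbered 27 in the 6 libraries, 12 with lines as labelled and 45 with equal totals. Of all genes 11.5%, 1.53% and 3774 of 12583 rose in these settings. Another 10 of the 67 listed genes were below the expression filter. IFIT3 and XAF1 passed it through CTBP2 libraries alone, so the filter can add to the share that rose.

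Promoters of these lists were compared for short motifs. The lists group genes by function, and each share is over all tested members, called or not. A share can therefore follow from that choice of genes alone. RefSeq promoters (GRCh38.p14, 250 bases before to 50 after the first listed start) were matched by Entrez ID, with both strands searched and the share over all 27305 promoters of the table given beside each. All promoters include those of genes below the expression filter, so the share over tested genes is given too. The files' own build is GRCh37, so coordinates refer to the RefSeq table alone. The motifs were CACGTG (E-box, bound by MYC with MAX among others), TTTCGCGC and TTTGGCGC (E2F sites), GAAANNGAA (core of interferon response elements) and CACCTG (E2 box, bound by ZEB and SNAI repressors). GGAANNGAA (ETS-IRF core) was also searched and was in 21.3% of the interferon list, 7.8% of all promoters and 7.8% of tested genes. Matches of the interferon and ETS-IRF cores overlapped in 68 promoters, those of TTTCGCGC and the interferon core in 13, and each other pair in at most 4. Of the nucleolar list 36.2% of 80 promoters held an E-box. The share was 7.4% of all promoters, 10.6% of tested genes and 13.9% of the 1586 shared lower genes that matched. Of the 24 shared members with an E-box, 9 have one wholly before the start and 15 only at or past it. Windows were drawn from before the start alone, and genes of a single chromosome were left out of them. Those of 5 of the 9 follow as examples, with the motif in capitals. They are the 5 with the largest smaller within-line fall among the members not left out.
EBNA1BP2 (chr1:43172782-43172820, minus strand): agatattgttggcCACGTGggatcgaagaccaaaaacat
UTP14A (chrX:129905914-129905948, plus strand): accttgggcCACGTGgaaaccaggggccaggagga
DDX54 (chr12:113185514-113185559, minus strand): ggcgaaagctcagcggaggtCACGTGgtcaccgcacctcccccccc
CIRH1A (chr16:69132613-69132648, plus strand): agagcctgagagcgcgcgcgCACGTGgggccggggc
UTP18 (chr17:51260437-51260482, plus strand): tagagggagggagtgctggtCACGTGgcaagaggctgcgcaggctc

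EBNA1BP2, an assembly factor of the large subunit, was at 65.2, 76.6, 36.6 and 49.1 FPKM in MM.1S and at 123.2, 86.0, 40.9 and 31.8 FPKM in NCI-H929. UTP14A, CIRH1A and UTP18, components of the small-subunit processome, changed by -0.56, -0.50 and -0.46 in MM.1S and by -1.20, -1.16 and -1.06 in NCI-H929. DDX54, a nucleolar helicase, changed by -0.53 and -0.66. The E-box stands between 11 and 241 bases before the start in these windows, a range that the choice of upstream matches bounds.

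Of the DNA replication list 27.1% of 59 promoters held one of the E2F sites. The share was 1.2% of all promoters, 2.2% of tested genes and 4.0% of the shared lower genes. Of the 15 shared members with a site, 7 have one wholly before the start, and the windows of 5 of these, chosen in the same way, have the E2F site in capitals.
E2F1 (chr20:33686386-33686425, minus strand): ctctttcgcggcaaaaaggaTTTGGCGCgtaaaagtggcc
CDC25A (chr3:48188434-48188481, minus strand): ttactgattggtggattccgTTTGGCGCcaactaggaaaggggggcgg
MCM6 (chr2:135876506-135876553, minus strand): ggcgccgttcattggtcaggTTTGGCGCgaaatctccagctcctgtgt
MCM7 (chr7:100101398-100101426, minus strand): cggtcacgtggggggcgacgTTTCGCGCc
POLA2 (chr11:65261889-65261936, plus strand): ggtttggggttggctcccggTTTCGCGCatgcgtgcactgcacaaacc

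E2F1, the activator of replication genes that itself responds to E2F, was at 43.3, 54.9, 15.7 and 26.5 FPKM in MM.1S and at 45.1, 35.6, 23.2 and 11.6 FPKM in NCI-H929. CDC25A, the phosphatase that activates CDK2, changed by -1.16 in MM.1S and -1.74 in NCI-H929. MCM6 and MCM7, subunits of the replicative helicase, changed by -1.06 and -1.03 in MM.1S and by -1.37 and -0.96 in NCI-H929. POLA2, a subunit of the primase complex, changed by -1.01 and -0.89.

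Of the interferon list 61.7% of 47 promoters held the core of the interferon response element, against 8.3% of all promoters and 6.7% of tested genes. Of the 19 shared members with the core, 16 have one wholly before the start. The windows of 5 of these, chosen in the same way by the largest smaller within-line rise, show the core in capitals. It is read on either strand, so that some are its reverse complement.
IFIT3 (chr10:89327856-89327904, plus strand): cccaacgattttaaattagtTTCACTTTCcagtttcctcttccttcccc
IFI44 (chr1:78649752-78649788, plus strand): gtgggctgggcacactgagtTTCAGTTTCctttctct
IFI6 (chr1:27672257-27672305, minus strand): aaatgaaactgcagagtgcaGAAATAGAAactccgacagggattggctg
PARP14 (chr3:122680790-122680838, plus strand): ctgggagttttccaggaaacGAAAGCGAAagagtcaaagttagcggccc
TRIM5 (chr11:5685075-5685120, minus strand): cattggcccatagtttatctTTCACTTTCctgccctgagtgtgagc

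IFI6, an interferon-induced membrane protein, was at 5.39, 8.16, 16.8 and 18.4 FPKM in MM.1S and at 14.7, 10.7, 23.7 and 30.3 FPKM in NCI-H929. PARP14, an ADP-ribosyltransferase, was at 4.21, 3.54, 10.0 and 7.68 FPKM in MM.1S and at 0.403, 0.720, 5.21 and 9.46 FPKM in NCI-H929. TRIM5, a restriction factor of retroviral capsids, changed by 0.95 in MM.1S and 1.5 in NCI-H929. Histone promoters held the interferon core in 35.9% of 39 cases, an E2F site in 20.5% and the E2 box in 2.6%, against 20.6% of all promoters for the latter. E2 boxes were in 16.1% of the shared lower genes and 18.4% of tested genes. A promoter was in the table for 79.1% of the shared higher genes, under the 80% set for such a check, which is therefore void for them. For all tested genes it was 79.8%, also under 80%, so their shares are given as values alone. Among shared members alone, 36.4% of the nucleolar list held an E-box, 28.8% of the replication list an E2F site and 70.4% of the interferon list its core. Over all tested members these were 36.2%, 27.1% and 61.7%. Whether the motifs bear on the response to CTBP2 was not tested. A match describes the letters in this window and says nothing of which factor was bound.

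**Figure D3:**
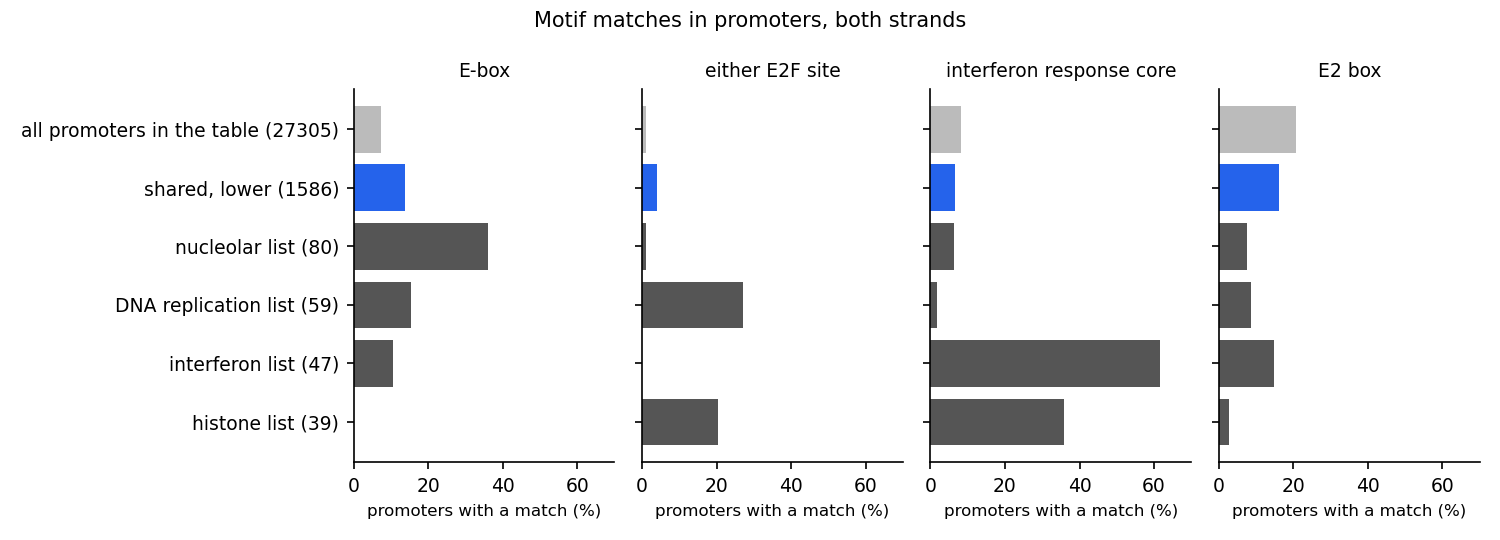
Share of promoters with at least 1 match on either strand, in percent, for 4 motifs, with the number of promoters in parentheses. The nucleolar list leads for the E-box at 36.2%, the DNA replication list for E2F sites at 27.1% and the interferon list for the interferon core at 61.7%.

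The genes with the largest rises in both lines were ranked by the smaller of the within-line changes. CEACAM1, a cell adhesion receptor, was at 0.765, 0.491, 9.34 and 4.40 FPKM in MM.1S and at 0.0857, 0.517, 7.30 and 22.2 FPKM in NCI-H929, a change of 2.82 (SE 0.38). ALOX5AP, which presents arachidonic acid for leukotriene synthesis, was at 4.73, 5.87, 26.9 and 21.7 FPKM in MM.1S and at 5.49, 3.53, 32.3 and 29.6 FPKM in NCI-H929, a change of 2.28 (SE 0.17). SEPP1, a secreted carrier of selenium, was at 7.60, 5.21, 36.3 and 22.3 FPKM in MM.1S and at 0.0761, 0.675, 8.21 and 18.9 FPKM in NCI-H929. For these 3 genes all 4 CTBP2 libraries lay above all 4 empty vector libraries. Low levels make fitted folds of CEACAM1 and SEPP1 depend on the added 1 FPKM.

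PPIC, a cyclophilin of the secretory pathway, was at 3.62, 4.87, 14.04 and 15.99 FPKM in MM.1S and at 1.60, 1.62, 18.5 and 19.1 FPKM in NCI-H929. C3AR1, the receptor of complement C3a, rose by 1.82. AMPD3, an AMP deaminase, and PIK3IP1, an inhibitor of PI3K, rose by 1.91 and 2.02. C4orf26 and C1orf115 rose by 2.10 and 1.86.

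**Figure D4:**
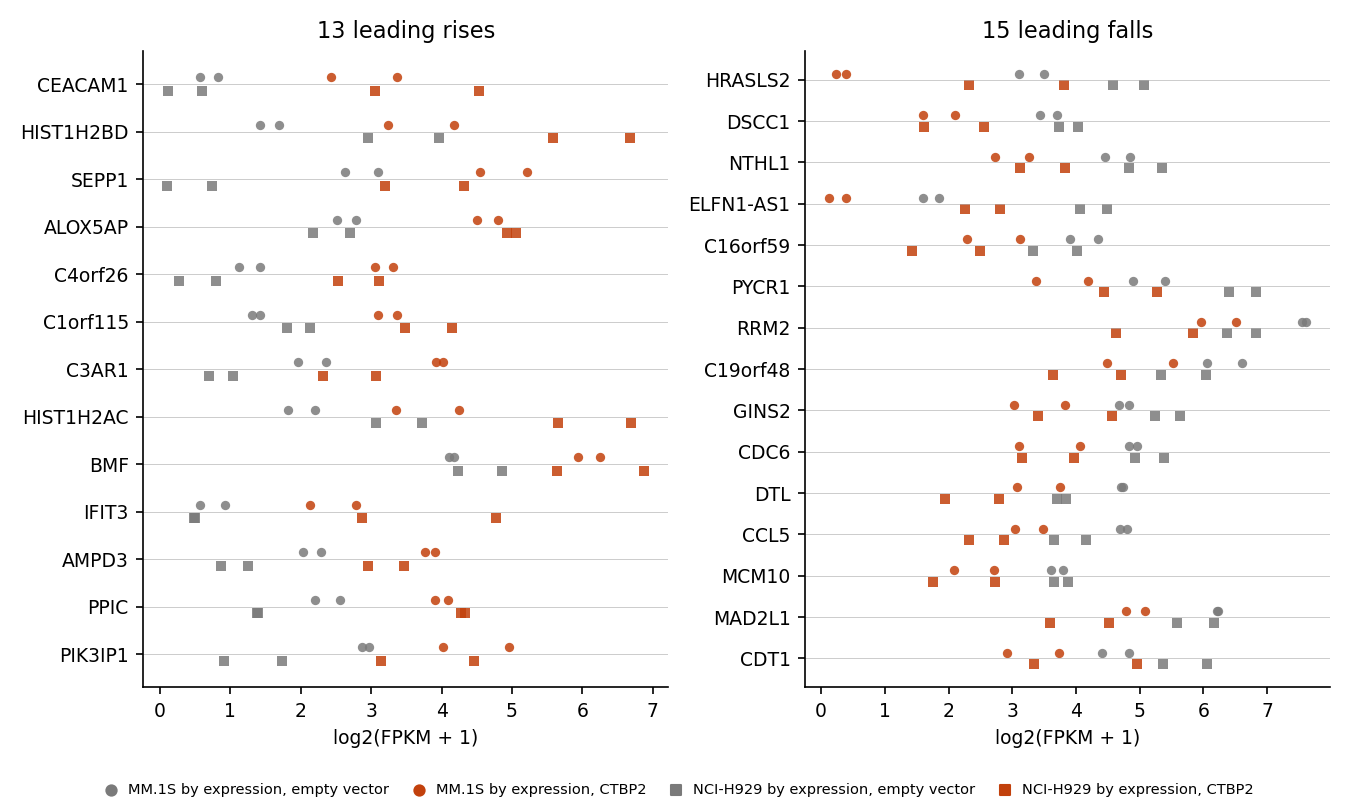
Level in each library, as log2(FPKM + 1), of 13 of the 15 shared genes with the largest rise and of the 15 with the largest fall, ranked by the smaller change of both lines, with lines set by expression. Within each line every CTBP2 point lies beyond both empty vector points, as the choice of genes requires, and baselines differ between lines for genes such as SEPP1.

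Several of the largest falls lay outside the lists above. HRASLS2, a phospholipase and acyltransferase, was at 10.3, 7.58, 0.312 and 0.177 FPKM in MM.1S and at 32.6, 23.0, 13.0 and 4.001 FPKM in NCI-H929. NTHL1, a glycosylase of base excision repair, was at 20.9, 27.7, 5.602 and 8.61 FPKM in MM.1S and at 39.6, 27.5, 13.2 and 7.73 FPKM in NCI-H929. CCL5, a chemokine for T cells, fell by 1.399 and DTL, a substrate receptor of the CUL4 ubiquitin ligase, by 1.36. C16orf59 and C19orf48 fell by 1.56 and 1.42. ELFN1-AS1 fell by 1.60, but it is an antisense transcript and the counting is not stated to use strand, so its reads cannot be told from those of its partner.

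Of 62 genes that brake PI3K, mTOR and the cell cycle, 24 were called higher and 3 lower, with a median of 0.41. In sign, 46 were higher and 5 lower in both lines, against 5084 and 4646 of all 12583 genes. TSC22D3, a glucocorticoid-induced leucine zipper protein, was at 13.7, 15.2, 66.4 and 51.5 FPKM in MM.1S and at 16.8, 11.1, 33.5 and 42.0 FPKM in NCI-H929. BHLHE40, a repressor of the circadian and hypoxia responses, and YPEL5 rose by 1.58 and 1.41. DEPTOR, an inhibitor of mTOR, had the lowest change of the list at -1.39. The rises numbered 22 in the 6 libraries, beside 11.5% of all genes.

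Of 43 genes of the BCL2 family and cell death 16 rose and 5 fell, with a median of 0.28. BMF, a BH3-only protein that inactivates prosurvival BCL2 proteins, was at 16.1, 17.0, 74.8 and 60.4 FPKM in MM.1S and at 17.9, 27.98, 48.8 and 116.6 FPKM in NCI-H929. Every CTBP2 library lay above every empty vector library for BMF. BIRC3, an inhibitor of apoptosis in NF-kB signalling, and BNIP3L, a receptor for mitophagy, rose by 1.51 and 0.93. BIRC5, survivin, a mitotic protein also on the list of mitosis, fell by 1.10. The rises were 10 without NCI-H929 empty vector replicate 1 or replicate 2.

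Lysosome and autophagy genes rose in 31 of 72 cases and fell in 2, with a median of 0.33. SQSTM1, the autophagy receptor p62, was at 153.5, 257.1, 485.2 and 594.0 FPKM in MM.1S and at 189.0, 157.1, 532.8 and 282.2 FPKM in NCI-H929. CTSS, a cysteine protease of antigen processing, GM2A, an activator of ganglioside breakdown, and GABARAPL1, which coats autophagosomes, rose by 1.56, 1.403 and 1.23. In the 6 libraries 19 rose, and with equal totals 52. Of all genes 11.5% rose in the 6 libraries, and 3774 of 12583 with equal totals.

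Epithelial and adhesion genes rose in 18 of 42 cases and fell in 1, with a median of 0.34. Another 16 of the 58 listed were below the expression filter, which CEACAM1 and EPCAM passed through CTBP2 libraries alone. CD82, a tetraspanin, was at 48.6, 72.1, 142.9 and 153.5 FPKM in MM.1S and at 0.670, 0.904, 9.32 and 18.5 FPKM in NCI-H929. SPINT1, an inhibitor of matriptase, and DSP, the plaque protein of desmosomes, rose by 1.56 and 1.18. SPINT1 was near 0 in the NCI-H929 controls, at 0.134 and 0.3604 FPKM, and reached 3.12 and 4.56 FPKM with CTBP2. Of the leukotriene and selenium list 6 of 27 rose and 4 fell, with a median of 0.00, shares near the 17.4% higher and 16.7% lower of all genes, so the counts are no result about this list. Single members called were PLA2G6, a phospholipase A2, at 1.10 and HPGD, which inactivates prostaglandins, at 0.64.

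Replication-dependent histone genes rose in 27 of 40 cases and fell in 0, with a median of 1.10, 0.37 in MM.1S and 1.83 in NCI-H929. Only 20 of these 27 are shared genes. Another 19 of the 59 listed were below the expression filter. The mature transcripts of most of these genes end in a stem-loop in place of a poly(A) tail, and near-identical copies can exchange reads, so single members are uncertain. HIST1H2BD was at 1.68, 2.23, 17.2 and 8.42 FPKM in MM.1S and at 6.80, 14.6, 46.7 and 101.1 FPKM in NCI-H929. HIST1H2BK was at 9.58, 10.6, 49.0 and 33.5 FPKM in MM.1S and at 67.7, 123.4, 196.9 and 326.8 FPKM in NCI-H929. HIST1H4H, at 0 in 1 MM.1S control, is listed at 1.69, 0, 4.24 and 3.01 FPKM in MM.1S and at 1.72, 10.2, 17.3 and 49.0 FPKM in NCI-H929. The call of HIST1H4H was lost in the 6 libraries. For 9 of the 40 the lines differed in their change by the interaction term. The rises were 17 without NCI-H929 CTBP2 replicate 1 or without NCI-H929 empty vector replicate 2, and 22 in the 6 libraries. Of all genes 11.5% rose in the 6 libraries.

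Of 26 tested partners of CtBP in repression 6 were called higher and 3 lower, with a median of 0.26, and 17 did not pass. With 17.4% higher and 16.7% lower among all genes, these counts are no result about the partners as a list, and single members are given as values. BCL6, a repressor of germinal centre B cells, was at 0.325, 0.377, 1.11 and 0.843 FPKM in MM.1S and at 0.0704, 0.129, 1.22 and 1.34 FPKM in NCI-H929. BCL6 passed the expression filter through CTBP2 libraries alone. ZEB1, a repressor that recruits CtBP to E2 boxes, was at 3.21, 3.595, 6.77 and 6.02 FPKM in MM.1S and at 4.45, 4.63, 5.54 and 7.31 FPKM in NCI-H929. The call of ZEB1 was lost in the 6 libraries without a conflicting label. EHMT2, a methyltransferase of histone H3, fell by 0.49, and RBBP8, a CtBP-binding factor of DNA end resection, by 0.61. With equal totals 14 were called higher and 0 lower, beside 3774 higher and 874 lower of all 12583 genes. Calls higher were 2 when replicate 1 of CTBP2 or replicate 2 of the empty vector in MM.1S, or replicate 1 of the empty vector in NCI-H929, was left out. They were 3 without NCI-H929 empty vector replicate 2 or the conflicting NCI-H929 library.

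Line markers themselves were partly among the called genes. MAF rose by 0.56 and CX3CR1, a chemokine receptor, by 0.78, while CCND1 fell by 0.85 (limma adjusted p = 0.0471), a call lost in 7 of the 8 fits when single libraries were left out. CCND2, at 94.6, 115.4, 46.7 and 60.7 FPKM in MM.1S, did not pass over both lines (limma adjusted p = 0.0967). In MM.1S alone CCND2 was called lower, at -0.96 (limma adjusted p = 0.0263), and in NCI-H929 it was at 0.0298 to 0.0633 FPKM. CCND2 also helped set the line of each library, so its fits are not independent of that choice. FGFR3 was at 13.8, 21.8, 13.6 and 22.2 FPKM in NCI-H929. The 10 FPKM limits therefore stand well away from any library's value for CCND2, and closer for FGFR3.

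**Figure D5:**
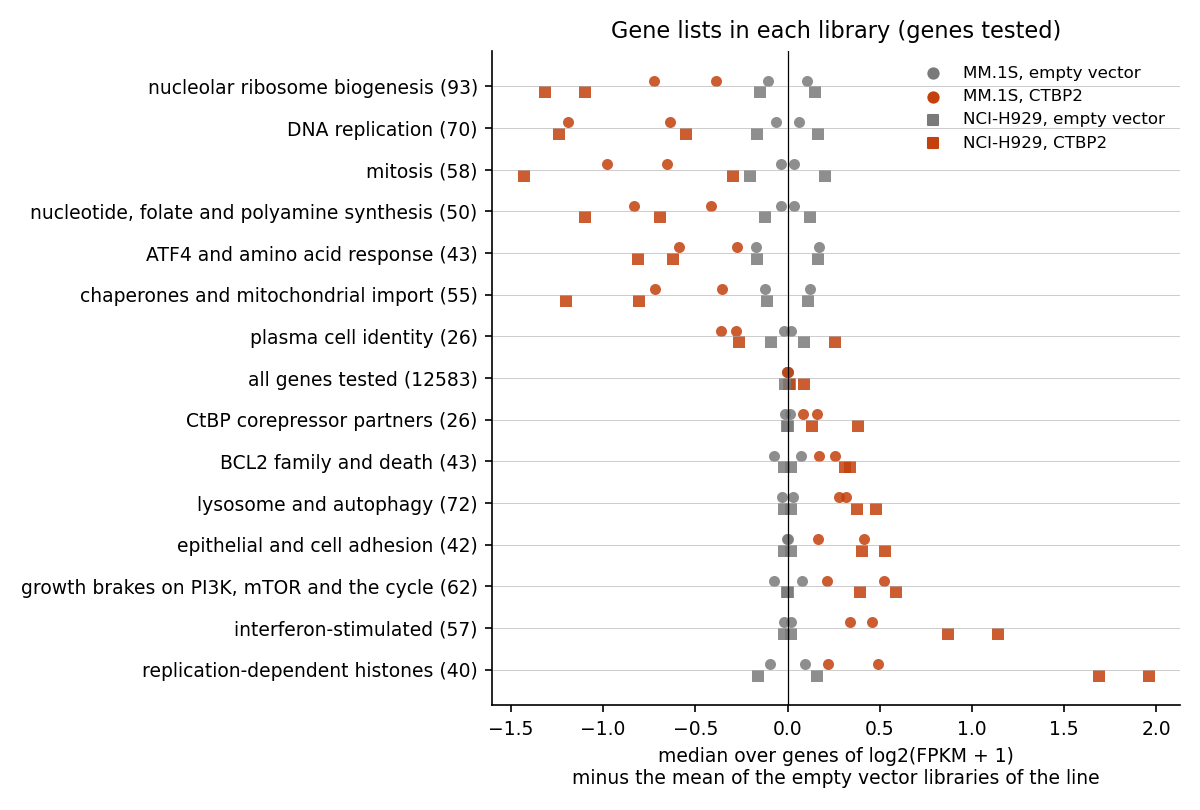
Median over the tested genes of each list of log2(FPKM + 1) in a library minus the mean of the empty vector libraries of its line, with the shape giving the line by expression, the colour the vector and the number of genes in parentheses. CTBP2 libraries lie to the left for growth lists and to the right for interferon and histone lists, while the median of all 12583 genes stays within 0.087 of the controls.

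Shared genes that rose and fell also differed in level and length. Median empty vector levels, part of the contrast that chose the genes, were 2.94 FPKM for those that rose, 23.8 FPKM for those that fell and 8.04 FPKM for all tested genes. Median length of the longest transcript per gene in GENCODE was 3954 bases for genes that rose, 3027 for those that fell and 3516 for all, with a length found for 97.0%, 99.6% and 97.8%. Median GC content was 48.1%, 47.6% and 48.3%. The expression filter passes a low gene through the group where it is high, and FPKM divides by length, and the part of level and length in the shared response was not tested.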

How the data were processed

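FPKM values of 8 libraries were deposited by the authors as 1 table for 25906 genes. Libraries were made from total RNA with a TruSeq kit, per the labels' protocols. STAR 2.6.0b-1, DESeq2 2.11.40.2, HTSeq 0.9.1, Trimmomatic 0.36.5, FastQC 0.11.7 and the build GRCh37 are named in the submitters' processing notes, with no role or order. The tool behind the FPKM values is not given in the sources used here, and absolute read depth is unknown, so no counting interval is given. Steps of the low values put relative depth between 0.948 and 1.259 times that of MM.1S empty vector replicate 1, weakly for NCI-H929 empty vector replicate 1 (38 of 2079 genes in the leading bin).

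From these, log2(FPKM + 1) of the 12583 genes at 1 FPKM or more in at least 2 libraries was fitted with limma 3.58.1 in R 4.3.3, with line by expression and vector as terms, a variance trend and Benjamini-Hochberg adjustment, 2-sided, at 0.05. Each line was also fitted alone, and the difference between lines as an interaction. The code was tested on simulated data. Other pseudocounts, filters, scalings, a replicate block, labelled lines, 6 libraries and each library left out were tried.

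Members and gene lists were chosen with earlier results of these data known. The text names CTBP2, CTBP1, MYC, IRF4, CCND2 and FGFR3, the 15 shared genes with the largest rise and the 15 with the largest fall (by the smaller within-line change, at least 1 FPKM in the higher group, without immunoglobulin, small RNA and clone names) and up to 4 called members of each list. Some genes that meet these rules are not reported here. List extremes, further members of the plasma cell list and promoter examples were added after values were seen.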

Additional observations from a re-analysis of the deposited data

Results flagged for a closer look

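MYC and PPIC changed by different amounts in the 2 lines by the interaction term of the limma fit. For MYC the change in NCI-H929 minus that in MM.1S was -1.41 (adjusted p = 0.0362), and both CTBP2 libraries were below both controls in each line. Over 19 alternatives the difference was called in 8, not called in 10 and reversed in 1, with adjusted p from 0.012 to 0.698. PPIC rose more in NCI-H929, by 1.30 (adjusted p = 0.042), a difference called in 6 of 19 alternatives (1.06 to 1.66, adjusted p 0.0144 to 0.497). CTBP2 itself was higher in the NCI-H929 libraries, so its level and the line cannot be told apart in these differences.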

How the results depend on the processing

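With lines as labelled 420 genes were called (192 higher, 228 lower), 420 met the shared rule with lines taken from the labels, the difference between lines was called for 2, and the difference in MYC turned to 0.92. The 6 libraries gave 1449 higher and 44 differences. A pseudocount of 0.1 gave 67 differences. Without a filter MM.1S gave 9 and NCI-H929 2 calls. A filter at 5 FPKM gave 1321 higher, 62 differences and 1519 calls in NCI-H929. Quantile normalization gave 1589 in NCI-H929, and a filter over all 8 libraries 130 in MM.1S. Equal totals gave 3819 higher and 876 lower. Requiring a change of at least 1 left 669 calls (375 higher, 294 lower), 627 of them shared. The cause of these moves was not tested.

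The replicate number as a block gave 3717 calls, 3479 of them shared, and 60 differences, and as a block within lines 1070 differences. Deviations of same-numbered libraries correlated at 0.44 and 0.45 within lines, and at 0.03 and -0.28 across them, and the labels tie the numbers to no shared day or culture.

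Leaving out 1 library at a time gave 2458 to 4441 calls, 1299 to 2233 higher, 1159 to 2208 lower, 2439 to 4334 shared, 6 to 418 differences, 506 to 2550 calls for MM.1S alone, and for NCI-H929 alone 278 to 3629. The lowest count of calls came without MM.1S CTBP2 replicate 1. The lowest and highest counts of differences came without NCI-H929 empty vector replicate 1 and NCI-H929 CTBP2 replicate 1.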
